A study of Mus musculus with 20 samples.

Results

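The genes described here are 10 genes of the nerve's connective tissue, measured in 20 RNA-seq libraries of mouse nerve tumors: Apod, Dcn, Lum, Dpt, Fbln1, Postn, Fn1, Sparc, Tnc and Cd34. They were taken by name from the 24062 genes of the deposited count table as genes of endoneurial fibroblasts and of matrix glycoproteins, with the collagens left out, and all 10 are among the 16589 genes that passed the filter on low counts. The tumors were of 3 stages: neurofibroma (12 libraries), paraspinal tumor (4 libraries, of which the labels put 2 in subgroup 1 and 2 in subgroup 2) and GEM-PNST (4 libraries), a peripheral nerve sheath tumor of genetically engineered mice. All mice were of strain C57BL/6J, carried 2 floxed copies of Nf1 with DhhCre and received no drug. The paraspinal and GEM-PNST mice were in addition Ink4a/Arf+/-, and the neurofibroma mice carried no such label. No age is given in the labels, and mice were kept until a set time or tumor size. DhhCre is active in the Schwann cell lineage from its precursors, which are known to give rise to endoneurial fibroblasts as well. The labels call the subgroups sub-clusters, so the split itself may rest on expression, and they do not say whether a GEM-PNST library came from a primary or a transplanted tumor.

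A peripheral nerve holds Schwann cells and axons in the endoneurium, a loose matrix with its own fibroblasts, inside a perineurial sheath and an outer epineurium. Neurofibromas are known for an abundant matrix laid down around Schwann cells, fibroblasts, mast cells and macrophages. Among the genes described, Apod encodes a secreted lipocalin known from endoneurial fibroblasts, Dcn and Lum encode small leucine-rich proteoglycans that bind collagen fibrils, and Dpt encodes a small matrix protein that binds decorin. Fbln1 encodes fibulin-1, a glycoprotein of elastic fibers and basement membranes, and Fn1 encodes fibronectin, which links integrins to matrix. Postn, Sparc and Tnc encode matricellular glycoproteins, which act on cells more than they carry load, and Cd34 encodes a sialomucin found on fibroblasts of many tissues and on endothelial cells.

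Of the 10 genes, 7 have a start region in the RefSeq table for GRCm38.p6 (250 bases before to 50 bases after the start), while Dcn, Lum and Fn1 have no entry there. The 4 regions shown, each read along its gene's strand, are those of Apod and Fbln1, which passed the test in opposite directions between GEM-PNST and neurofibroma, and those of Sparc and Tnc, which with Fbln1 hold the motif CAGACA. Capitals mark matches, on either strand, to the TATA box TATAAA, the CCAAT box, the GC box GGGCGG, the AP-1 motif TGANTCA and the SMAD motif CAGACA. The last of these reads TGTCTG on the other strand. SMAD proteins carry the TGF-beta signal to genes. Apod lies at chr16:31314759-31315058 (minus strand), Fbln1 at chr15:85205758-85206057 (plus strand, the second of 2 listed starts), Sparc at chr11:55420031-55420330 (minus strand) and Tnc at chr4:64046966-64047265 (minus strand, the first of 2 listed starts).
Apod: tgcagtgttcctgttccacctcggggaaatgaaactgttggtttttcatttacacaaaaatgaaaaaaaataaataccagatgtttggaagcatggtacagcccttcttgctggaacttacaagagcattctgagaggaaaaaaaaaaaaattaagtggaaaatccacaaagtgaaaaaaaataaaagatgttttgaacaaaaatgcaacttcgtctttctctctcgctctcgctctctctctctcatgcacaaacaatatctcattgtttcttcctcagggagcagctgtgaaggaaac
Fbln1: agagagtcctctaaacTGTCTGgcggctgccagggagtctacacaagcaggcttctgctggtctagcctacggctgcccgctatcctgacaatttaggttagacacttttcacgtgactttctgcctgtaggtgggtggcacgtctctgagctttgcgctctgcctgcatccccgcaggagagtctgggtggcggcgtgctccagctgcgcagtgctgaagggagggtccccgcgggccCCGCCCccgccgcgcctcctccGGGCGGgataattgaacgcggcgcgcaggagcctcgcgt
Sparc: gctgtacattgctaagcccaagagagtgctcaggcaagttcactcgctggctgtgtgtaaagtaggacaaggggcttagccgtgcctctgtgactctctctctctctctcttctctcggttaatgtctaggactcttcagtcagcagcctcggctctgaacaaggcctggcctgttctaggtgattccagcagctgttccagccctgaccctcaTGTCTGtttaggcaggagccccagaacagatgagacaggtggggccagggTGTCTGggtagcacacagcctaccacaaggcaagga
Tnc: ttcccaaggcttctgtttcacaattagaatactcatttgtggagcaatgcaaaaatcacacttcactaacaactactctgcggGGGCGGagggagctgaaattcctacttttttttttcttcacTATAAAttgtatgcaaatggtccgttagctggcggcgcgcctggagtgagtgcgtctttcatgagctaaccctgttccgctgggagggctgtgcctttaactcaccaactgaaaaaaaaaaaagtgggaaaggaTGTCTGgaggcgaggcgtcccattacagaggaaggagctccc
CAGACA or its complement was found in the regions of 3 of the 7 genes (Fbln1, Sparc and Tnc) and in 6913 of 32851 such mouse regions, TATAAA in 3 of 7 (Dpt, Postn and Tnc) and in 13.6%, GGGCGG in 2 of 7 (Fbln1 and Tnc) and in 35.7%, CCAAT in 1 of 7 (Postn) and in 37.4%, and TGANTCA in 0 of 7 and in 7.81%. The Sparc region holds 2 such matches, at -36 and 14 from its start counted in bases, and the Tnc region holds TATAAA at -126. The 300 bases of Apod and of Cd34 hold none of the 5 motifs. A gene counts here if any of its listed starts holds a match, while the mouse shares are per single region, so the 2 are not measured alike. Fbln1, Postn and Tnc each have 2 listed starts. The GGGCGG matches of Fbln1 and each match of Postn lie in only 1 of the 2. A match is a description of the letters and not a site in use.

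Total counts ran between 9900759 and 17594164 for neurofibroma, between 18474071 and 24314222 for paraspinal tumors and between 16282605 and 22218382 for GEM-PNST. Levels are given as CPM, which are counts divided by library size, scaled with TMM factors over all 20 libraries. Some libraries stand apart. GEM-PNST library 1 was the lowest of its stage for all 10 genes, against 39.6% of all tested genes, and in GEM-PNST library 4 a single ribosomal RNA locus, Rn45s, took 30.7% of counts. Rn45s also moved with stage: libraries 1 to 3 of GEM-PNST had 3461 to 11327 CPM and library 4 had 404842 CPM, against 3455 to 16342 CPM in paraspinal and 31967 to 191068 CPM in neurofibroma libraries. With Rn45s left out of the table, the calls of the 10 genes stood as with it in all 3 stage comparisons. By the run names in the submitters' table, neurofibroma libraries 1 to 6 (run 1 here) and 7 to 12 (run 2 here) came from different runs, and all paraspinal and GEM-PNST libraries from another, so run and genotype cannot be told apart from stage in any comparison with neurofibroma. Whether the libraries are from separate animals is not stated. The sample names of GEM-PNST library 2 and paraspinal subgroup 1 library 1 are nearly alike, as are those of neurofibroma libraries 8 and 9 and of both subgroup 2 libraries, so each of these pairs may share a source, while the tests treat all libraries as independent. The p-values measure the spread between libraries, which may be technical. In bulk RNA, fewer cells of a type and less RNA per cell cannot be told apart.

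Apod and Sparc had the highest levels per length of the 10 genes. Per kilobase of exon, Apod was highest in 14 libraries and Sparc in the other 6, with medians over all 20 libraries of 1826 and 1000.2 CPM per kilobase. Dcn followed with 423 and Lum with 232 CPM per kilobase. Fn1 had 104, Postn 71.6 and Cd34 15.4, while Tnc had 9.74, Dpt 5.61 and Fbln1 3.03 CPM per kilobase. The order was not fixed: the rank of Lum among the 10 genes per kilobase ran from 3 to 10 in single libraries, and that of Fn1 from 2 to 6.

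GEM-PNST and paraspinal tumors share genotype and run. Between them 0 of the 10 genes passed the test at an adjusted p of 0.05, against 10.2% of all tested genes (edgeR quasi-likelihood test, Benjamini-Hochberg adjustment). An unadjusted p below 0.05 was reached by 1 of the 10 genes, against 5421 of the 16589 tested genes. In 3 of the 10 genes (Apod, Dcn and Lum) every GEM-PNST library lay below every paraspinal library, as in 16.7% of all tested genes. Between GEM-PNST and neurofibroma, 3 of the 10 passed, against 73.1% of all tested genes: Apod and Dcn fell (38.1% of all genes were lower) and Fbln1 rose (35.0% were higher). Between paraspinal tumors and neurofibroma 3 of the 10 passed, against 59.4% of all tested genes, and Apod, Fbln1 and Cd34 all rose (30.2% of all genes were higher). No gene of the 10 was without overlap in either comparison with neurofibroma, against 46.4% of all tested genes for GEM-PNST and 36.5% for paraspinal tumors. The median log2 fold change of the 10 genes was -0.42 in GEM-PNST against paraspinal tumors, beside 0.00 over all tested genes. It was 0.48 in GEM-PNST against neurofibroma, beside -0.14, and 0.70 in paraspinal tumors against neurofibroma, beside -0.02. The comparisons share libraries, so they are not independent of each other. In none of the 3 comparisons was the share of the 10 genes that passed above that of all genes. In simulated counts edgeR found 0 of 100 4-fold changes between GEM-PNST and paraspinal tumors. A lack of calls there does not show equal levels. The spread within a stage was wide: the SD of log2 CPM exceeded the median SD of all tested genes for all 10 in neurofibroma, 8 in paraspinal and 10 in GEM-PNST libraries.

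**Figure D1:**
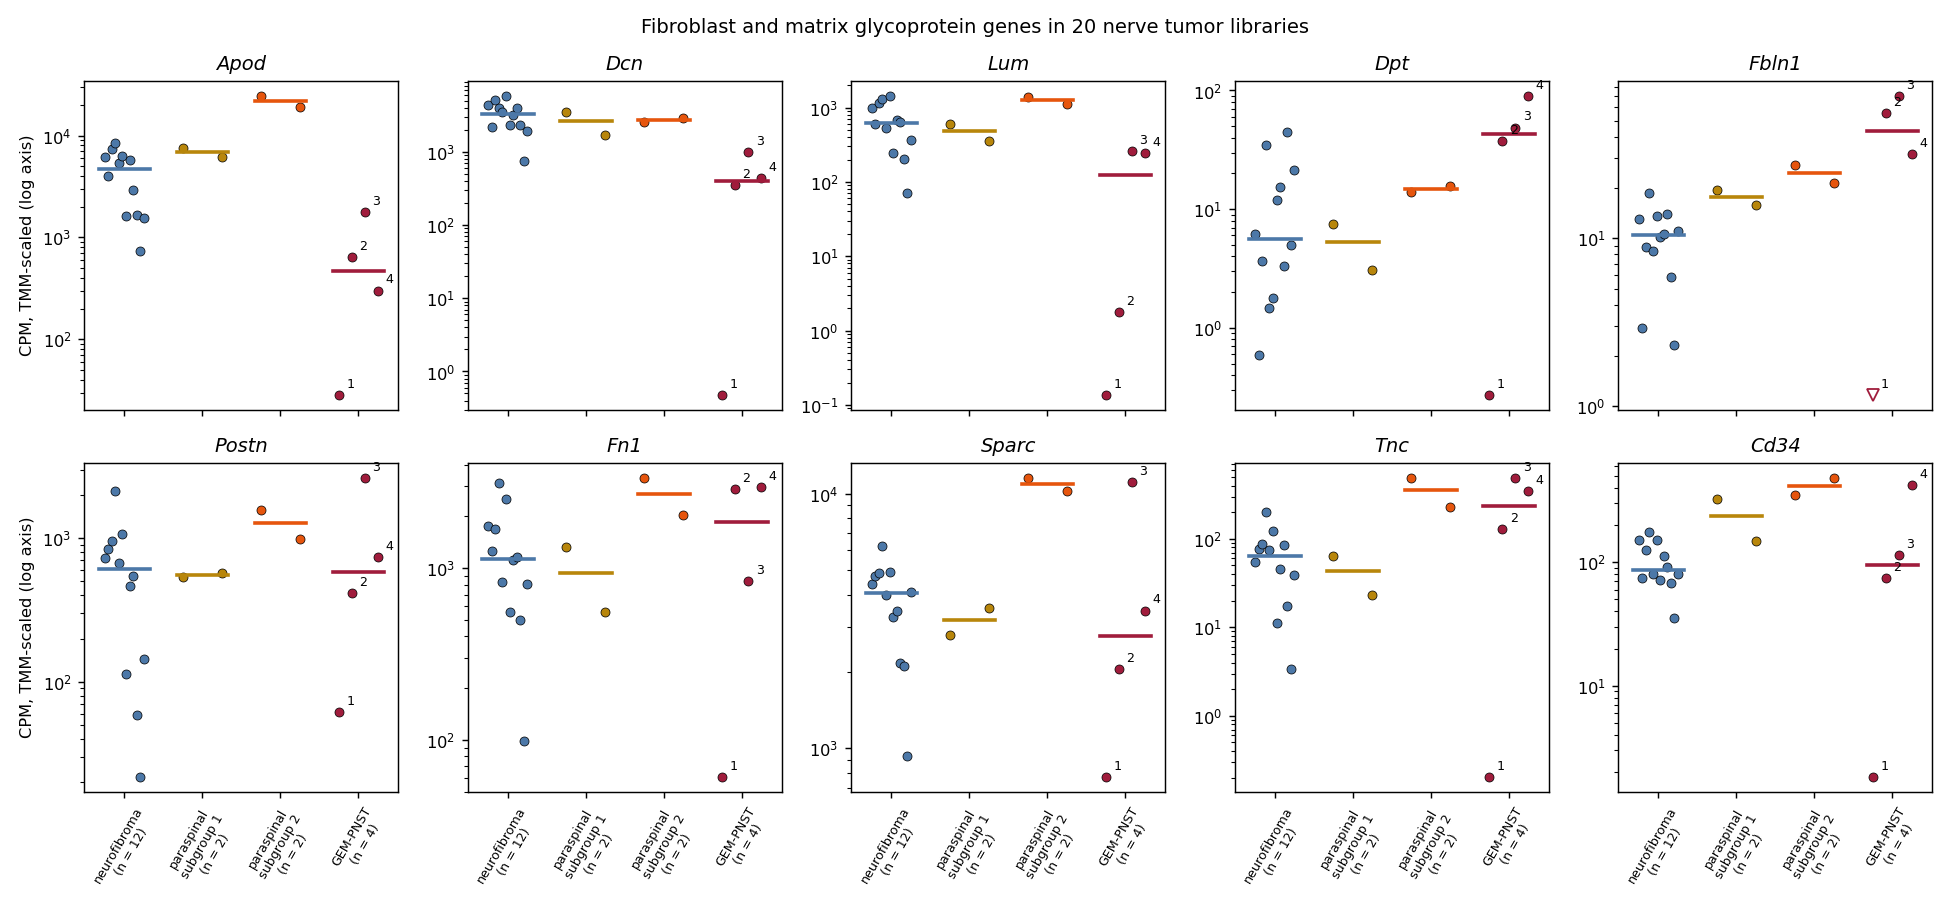
Levels of the 10 genes in each library, in CPM on log axes, with 1 point per library, a bar at the group median and GEM-PNST libraries numbered. The open triangle is Fbln1 in GEM-PNST library 1, which had 0 counts and is drawn at the foot of its axis. GEM-PNST library 1 is the lowest point of its group in every panel, and paraspinal subgroup 2 has the highest 2 Apod values, 24506 and 18951 CPM.

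Apod (ENSMUSG00000022548, chromosome 16, 31296192 to 31314808, minus strand, GRCm38) was high in paraspinal tumors and low in GEM-PNST. It ranged from 742 to 8514 CPM in neurofibroma with a median of 4706, had 7642 and 6120.5 CPM in paraspinal subgroup 1, 24506 and 18951 CPM in subgroup 2, and 28.2, 644, 1778 and 301 CPM in GEM-PNST libraries 1 to 4. All GEM-PNST libraries lay below all paraspinal libraries, and GEM-PNST library 3 alone lay within the neurofibroma range, above neurofibroma libraries 7, 10, 11 and 12. Against neurofibroma, Apod rose in paraspinal tumors by a log2 fold change of 1.72 (SE 0.51, adjusted p = 0.00825) and fell in GEM-PNST by 2.63 (SE 0.87, adjusted p = 0.0120; edgeR for both). Against paraspinal tumors its log2 fold change in GEM-PNST was -4.38 (SE 1.21), just outside the threshold (edgeR adjusted p = 0.0536). It passed without GEM-PNST library 1 (adjusted p = 0.0417), without library 3 (adjusted p = 0.0315) and by DESeq2 (adjusted p = 0.000108), and the rise over neurofibroma was not called without paraspinal subgroup 2 library 1 (edgeR adjusted p = 0.0596) or by limma-voom (adjusted p = 0.128). By run, the log2 fold change of GEM-PNST was -1.73 against run 2 alone (adjusted p = 0.129) and -3.18 against run 1 alone (adjusted p = 0.0101; edgeR). That of paraspinal tumors was 2.58 against run 2 alone (adjusted p = 0.00427) and 1.10 against run 1 alone (adjusted p = 0.0407; edgeR), and with subgroup 1 as the only paraspinal libraries it was 0.68 and not called (edgeR adjusted p = 0.445).

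The proteoglycan genes Dcn and Lum, neighbors on chromosome 10 (97479609 to 97518143 and 97565128 to 97572703, plus strand), overlapped between neurofibroma and paraspinal tumors and were low in GEM-PNST. Dcn ranged from 739.8 to 5795 CPM in neurofibroma (median 3321), had 3534 and 1687 CPM in paraspinal subgroup 1, 2589.7 and 2939 CPM in subgroup 2, and 0.474, 355, 981 and 441 CPM in GEM-PNST libraries 1 to 4. Lum ranged from 71.2 to 1430.5 CPM in neurofibroma (median 618), had 599 and 359 CPM in subgroup 1, 1389 and 1116 CPM in subgroup 2, and 0.135, 1.78, 257 and 244 CPM in GEM-PNST libraries 1 to 4. No GEM-PNST library reached the lowest paraspinal library for either gene, while against neurofibroma Dcn overlapped through library 3 and Lum through libraries 3 and 4. On the log2 scale Dcn fell by 2.86 in GEM-PNST against neurofibroma (SE 0.98, edgeR adjusted p = 0.0153). By run, it was not called against run 2 alone (log2 fold change -2.38, adjusted p = 0.104) and was called against run 1 alone (-3.20, adjusted p = 0.0394; edgeR). The Lum difference of -2.42 (SE 1.21) missed the threshold in edgeR (adjusted p = 0.0832) and passed in DESeq2 (adjusted p = 0.0104) and limma-voom (adjusted p = 0.0328). Against paraspinal tumors the log2 fold changes in GEM-PNST were -2.60 for Dcn (SE 1.37, adjusted p = 0.222) and -2.76 for Lum (SE 1.69, adjusted p = 0.286; edgeR), and without GEM-PNST library 1 Dcn passed (-2.17, adjusted p = 0.0478). Between paraspinal tumors and neurofibroma neither gene passed in edgeR (log2 fold changes -0.29 and 0.34, adjusted p of 0.544 and 0.624).

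Dpt and Fbln1 were high in 3 of the 4 GEM-PNST libraries. Dpt (chromosome 1, 164796644 to 164824266, plus strand) ranged from 0.593 to 44.7 CPM in neurofibroma (median 5.56), had 7.48 and 3.06 CPM in subgroup 1, 14.0 and 15.7 CPM in subgroup 2, and 0.271, 37.7, 48.7 and 89.8 CPM in GEM-PNST libraries 1 to 4. Fbln1 (chromosome 15, 85205949 to 85286535, plus strand) ranged from 2.32 to 18.6 CPM in neurofibroma (median 10.4), had 19.4 and 15.7 CPM in subgroup 1, 27.4 and 21.3 CPM in subgroup 2, and 0, 55.7, 70.2 and 31.8 CPM in GEM-PNST libraries 1 to 4. GEM-PNST libraries 2, 3 and 4 were above every other library of the series for Fbln1 and above every paraspinal library for Dpt, while library 1 was below all other libraries for both. The 0 counts of Fbln1 in that library allow up to 0.203 CPM (3 counts, counting error only). Fbln1 rose against neurofibroma in paraspinal tumors by 1.07 (SE 0.38, adjusted p = 0.0208) and in GEM-PNST by 2.01 (SE 0.72, adjusted p = 0.0200; log2 scale, edgeR). The GEM-PNST call was lost without library 2 (adjusted p = 0.0547) or library 3 (adjusted p = 0.0995) in edgeR and by limma-voom (adjusted p = 0.129), and against each neurofibroma run alone (log2 fold changes 2.19 for run 2 and 1.86 for run 1, edgeR adjusted p of 0.0901 and 0.141). The paraspinal call of Fbln1 held against run 2 alone (1.22, adjusted p = 0.0226) and was lost against run 1 alone (0.85, adjusted p = 0.107), without subgroup 2 library 1 (adjusted p = 0.0824) and with subgroup 1 alone (adjusted p = 0.205; edgeR). Dpt had log2 fold changes in GEM-PNST of 2.12 against paraspinal tumors (SE 1.18, edgeR adjusted p = 0.243) and 1.84 against neurofibroma (SE 0.94, edgeR adjusted p = 0.0895). Without GEM-PNST library 1 both passed in edgeR (2.52, adjusted p = 0.0389, and 2.24, adjusted p = 0.0282). Strand use in the counting is not given, and Dpt, Fn1, Tnc and Cd34 each overlap 1 annotated gene on the other strand, so reads of that gene cannot be told apart from theirs.

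Fn1 (chromosome 1, 71585520 to 71653200, minus strand) overlapped between all stages. It ranged from 98.4 to 3153 CPM in neurofibroma (median 1138), had 1328 and 555 CPM in subgroup 1, 3356 and 2042 CPM in subgroup 2, and 60.7, 2891, 838 and 2959.8 CPM in GEM-PNST libraries 1 to 4. In GEM-PNST the log2 fold change was -0.16 against paraspinal tumors (SE 1.00, adjusted p = 0.938) and 0.37 against neurofibroma (SE 0.73, adjusted p = 0.656; edgeR). Normal intervals take no account of the few libraries and are narrower than the edgeR test implies. At 95% they ran from -2.12 to 1.81 and from -1.05 to 1.80, so both held 0 and spanned several fold in either direction. Its ratio to Dcn, chosen after the values were seen and given without a test, was 0.133 to 0.789 in neurofibroma, 0.376 and 0.329 in subgroup 1, 1.30 and 0.695 in subgroup 2, and 128, 8.14, 0.855 and 6.71 in GEM-PNST libraries 1 to 4. The ratio, in CPM and not per length, was above that of all 12 neurofibroma libraries in all 4 GEM-PNST libraries, and the value of library 1 rests on 7 Dcn counts.

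The matricellular genes Postn, Sparc and Tnc also overlapped between stages. Postn (chromosome 3, 54361109 to 54391037, plus strand), the periostin gene, ranged from 21.7 to 2136 CPM in neurofibroma (median 612), had 534 and 569 CPM in subgroup 1, 1563 and 984 CPM in subgroup 2, and 61.3, 415, 2634 and 739.8 CPM in GEM-PNST libraries 1 to 4. Sparc (chromosome 11, 55394500 to 55423183, minus strand), which encodes a collagen-binding protein, ranged from 931 to 6216 CPM in neurofibroma (median 4058), had 2792 and 3568 CPM in subgroup 1, 11519 and 10242 CPM in subgroup 2, and 772, 2045, 11096 and 3475 CPM in GEM-PNST libraries 1 to 4. Tnc (chromosome 4, 63959785 to 64047015, minus strand), the tenascin-C gene, ranged from 3.35 to 200.2 CPM in neurofibroma (median 64.5), had 63.6 and 23.5 CPM in subgroup 1, 483 and 231 CPM in subgroup 2, and 0.203, 128, 488 and 345 CPM in GEM-PNST libraries 1 to 4. For all 3 genes GEM-PNST library 3 was the highest of its stage and library 1 the lowest. In GEM-PNST against paraspinal tumors the log2 fold changes were 0.09 for Postn, -0.69 for Sparc and 0.27 for Tnc (SE 0.96, 0.89 and 1.48; edgeR adjusted p of 0.969, 0.620 and 0.926). Against neurofibroma they were 0.60, 0.24 and 1.83 (SE 0.90, 0.52 and 0.91; edgeR adjusted p of 0.560, 0.694 and 0.0783), and Tnc passed without GEM-PNST library 1 (2.24, adjusted p = 0.00966) or without neurofibroma library 4 (2.11, adjusted p = 0.0454). In paraspinal tumors against neurofibroma Sparc and Tnc had log2 fold changes of 0.90 and 1.55 (SE 0.41 and 0.73; edgeR adjusted p of 0.0663 and 0.0754). With subgroup 2 alone as the paraspinal side both passed in edgeR (1.48 and 2.33, adjusted p of 0.00780 and 0.0194), and with subgroup 1 alone the signs turned (-0.23 and -0.63).

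Cd34 (chromosome 1, 194938819 to 194961279, plus strand) had the smallest p of the 10 genes in paraspinal tumors against neurofibroma. It ranged from 35.3 to 174 CPM in neurofibroma (median 85.7), had 322 and 149 CPM in subgroup 1, 347 and 479.5 CPM in subgroup 2, and 1.83, 74.5, 113 and 419.8 CPM in GEM-PNST libraries 1 to 4. Of the 4 paraspinal libraries, 3 lay above all neurofibroma libraries, and GEM-PNST libraries 2 and 3 lay among the neurofibromas. On the log2 scale Cd34 rose by 1.68 in paraspinal tumors (SE 0.32, edgeR adjusted p = 0.000250). The 95% normal interval, again narrower than the test implies, was 1.05 to 2.31. The log2 fold change was 2.09 against run 2 alone (adjusted p = 0.000646) and 1.27 against run 1 alone (adjusted p = 0.00965; edgeR). In GEM-PNST the log2 fold changes were -1.09 against paraspinal tumors and 0.59 against neurofibroma (SE 1.13 and 0.66; edgeR adjusted p of 0.525 and 0.433). Endothelial cells also carry Cd34: the 10 endothelial markers summed to 180.0 to 381 CPM in paraspinal and 111 to 570.4 CPM in neurofibroma libraries, and 4 of the 10 rose and 2 fell in edgeR. Their part in the Cd34 result was not tested.

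**Figure D2:**
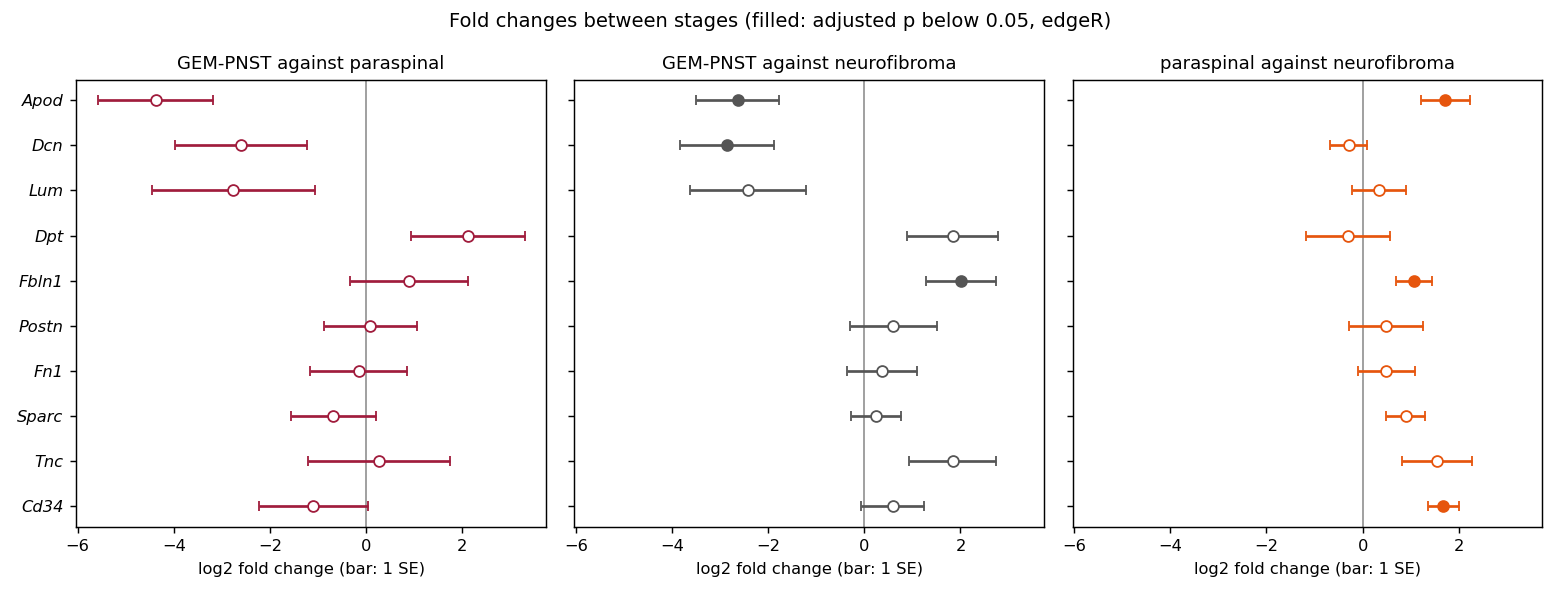
Log2 fold changes of the 10 genes in the 3 stage comparisons, with bars of 1 SE and filled points where the edgeR adjusted p is below 0.05. Apod, Dcn and Lum lie left of 0 in both comparisons of GEM-PNST, and Fbln1 is filled in both comparisons with neurofibroma.

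The 4 GEM-PNST libraries differed widely from each other. The highest library exceeded the lowest by 14.4-fold for Sparc, 43.0-fold for Postn, 48.8-fold for Fn1 and 63.0-fold for Apod. The ratio was 229.6-fold for Cd34, 332-fold for Dpt and 2069-fold for Dcn, resting on 27, 4 and 7 counts in library 1. None is given for Lum, Tnc and Fbln1, which had 2, 3 and 0 counts there. The SD of log2 CPM in GEM-PNST ran from 1.60 for Sparc to 5.03 for Lum, beside a median of 0.70 over all tested genes. Library 3 was the highest for 7 of the 10 genes, against 19.2% of all tested genes, and library 4 for the other 3 (Dpt, Fn1 and Cd34). Leaving out library 1 gave 3 calls against paraspinal tumors, with Apod and Dcn lower and Dpt higher, where 1483 of all 16589 tested genes were called. Against neurofibroma it gave 5 calls, with Apod and Dcn lower and Dpt, Fbln1 and Tnc higher, where 11956 of all tested genes were called.

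Markers of fibroblasts and of other cells also differed between the libraries. The 7 endoneurial fibroblast markers summed to 17.8, 968, 359 and 777 CPM in the GEM-PNST libraries (1 to 4 in order), against 542 to 1179 CPM in paraspinal and 655 to 2213 CPM in neurofibroma libraries. In library 1 the fibroblast receptor gene Pdgfra had 0.0677 CPM, a single count, and Osr2, Sox9 and Wif1 had 0 counts, while Pdgfra had 550.5, 72.2 and 635 CPM in libraries 2 to 4. Wif1 had 0 counts in libraries 2 and 4 as well. The other 3 markers were present in library 1, Abca8a with 0.610 CPM, Abca9 with 9.01 CPM and Etv1 with 8.13 CPM, and for Abca9 that was above the 1.19 CPM of library 2. Abca8a had 0.324, 224 and 13.0 CPM in libraries 2 to 4, against 186 to 878 CPM in paraspinal libraries. Osr2 had 336.5, 8.43 and 33.8 CPM in libraries 2 to 4, against 13.7 to 22.2 CPM in paraspinal libraries. The 9 macrophage markers in the table summed to 3147, 1894, 3872 and 5244 CPM in the GEM-PNST libraries (1 to 4 in order), against 308 to 1791 CPM in paraspinal libraries, and the 8 cell cycle markers to 896, 549, 304 and 696 CPM, against 35.5 to 245 CPM. The 9 Schwann cell markers summed to 2.44, 3.78, 973 and 26.5 CPM in the GEM-PNST libraries (1 to 4 in order), against 4853 to 9409 CPM in paraspinal libraries. Library 3 also had Bpifa2, a salivary gland transcript, as its largest gene. Its epineurial fibroblast markers summed to 2735 CPM, above the 815 to 1329.6 CPM of the other 3 GEM-PNST libraries. This lay within the paraspinal range of 2294.5 to 5465.5 CPM. Gsn was a large part of these sums, at 1317 CPM in library 3, 1107 CPM in library 1 and 1785 to 5321 CPM in paraspinal tumors. By mean log2 CPM, where Gsn weighs less, the list stood at 5.995 in library 3. The other GEM-PNST libraries ran from 0.656 to 3.31 and the paraspinal libraries from 3.35 to 5.13. The part of these cells in the levels of the 10 genes was not tested.

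**Figure D3:**
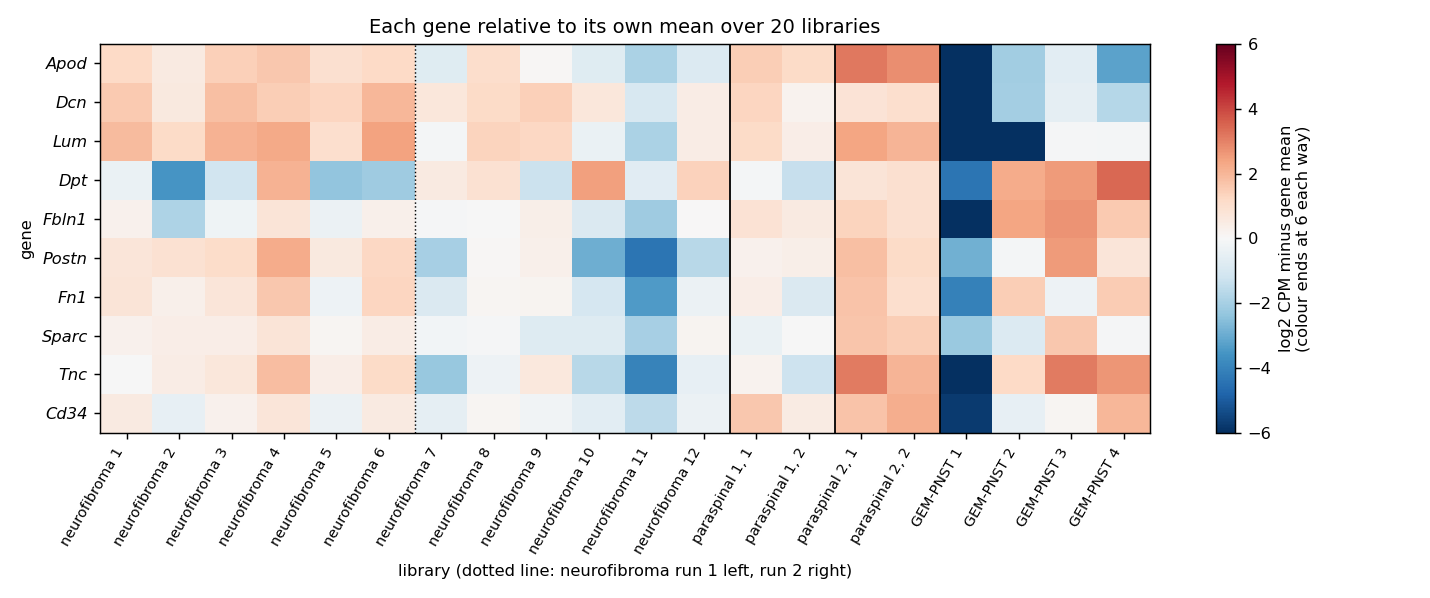
Log2 CPM of each gene minus its mean over the 20 libraries, with genes in rows and libraries in columns, by stage (solid lines) and neurofibroma run (dotted line). GEM-PNST library 1 is blue in all 10 rows, neurofibroma library 11 is the lowest of its stage in 9 rows, and paraspinal subgroup 2 is red in all 10 rows.

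All 10 genes had a positive log2 fold change in paraspinal subgroup 2 against subgroup 1, but none passed the test. The median was 1.42, beside -0.01 over all tested genes, and in 9 of the 10 both subgroup 2 libraries lay above both subgroup 1 libraries, against 34.6% of all tested genes. Tnc had the largest log2 fold change with 3.02 (SE 2.19, adjusted p = 0.653), then Sparc with 1.76 (SE 1.18, adjusted p = 0.616) and Apod with 1.64 (SE 1.50, adjusted p = 0.736; edgeR). Dcn was the exception to the separation, with 2589.7 and 2939 CPM in subgroup 2 against 3534 and 1687 CPM in subgroup 1. In this comparison 0.0% of all tested genes passed in edgeR, 2100 had an unadjusted p below 0.05, and DESeq2 and limma-voom called 1212 and 5453 genes. The fits also held the 4 GEM-PNST libraries, whose spread enters these SEs and p-values. The median SD of log2 CPM over all tested genes was 0.70 in GEM-PNST, 0.19 in subgroup 1 and 0.16 in subgroup 2. In simulated counts edgeR found 0 of 100 4-fold changes between the subgroups. Of the 10 genes, limma-voom called Sparc (adjusted p = 0.0209). The macrophage markers summed to 1791 and 1487 CPM in subgroup 2, against 872 and 308 CPM in subgroup 1. Other lists shifted as well: the log2 fold change was positive for 8 of 8 cell cycle markers (median 2.62) and 12 of 12 elastic fiber genes (median 1.68). It was negative for 8 of 10 neuron markers and 6 of 9 Schwann cell markers. The part of these cells was not tested. The endoneurial fibroblast markers summed to 542 and 664 CPM in subgroup 2, against 1147 and 1179 CPM in subgroup 1, mainly through Abca8a with 186 and 391 CPM, against 754 and 878 CPM. Other markers of that list did not follow the sum: Wif1 had 156 and 45.4 CPM in subgroup 2, against 11.2 and 2.44 CPM in subgroup 1, and the mean log2 CPM of the 7 was 5.73 and 5.76, against 6.02 and 5.43.

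Most of the 10 genes also varied together over the 12 neurofibroma libraries. Library 4 was the highest of the stage for 7 of the 10 genes, against 12.6% of all tested genes, and library 11 the lowest for 9, against 25.9%. Of the 45 pairs of genes, 31 had a Pearson r above 0.7 over the 12 libraries, with a median of 0.84. The pairs share libraries and depth. Libraries 4 and 11 lie at the ends for many other genes too: library 11 was the highest for 23.9% and library 4 the lowest for 23.7% of all tested genes. The r of pairs of other genes was not computed, so whether the 10 genes vary together more than others was not tested. Lum and Fn1 were closest (r = 0.976), followed by Lum and Postn (r = 0.960). Dpt was the exception, with a median r of -0.14 to the other 9 genes, and its highest neurofibroma library was library 10 (44.7 CPM), where Postn had 58.7 CPM.

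Run and the content of other cells went with these levels. In run 2 against run 1 of neurofibroma 9 of the 10 genes had a negative log2 fold change, with a median of -1.17 beside 0.03 over all tested genes. None passed in edgeR, as for 0.0% of all tested genes, although 8 of the 10 and 2222 of all genes had an unadjusted p below 0.05. DESeq2 called 526 genes, Apod and Postn among them, and limma-voom called 440, with Apod, Lum and Postn among them. Without neurofibroma library 8 or 9, edgeR called 11 or 157 of all genes and 0 of the 10. Postn was the only 1 of the 10 without overlap, with 21.7 to 548 CPM in run 2 against 677 to 2136 CPM in run 1 (log2 fold change -2.28, SE 0.68, edgeR adjusted p = 0.203), as in 0.663% of all tested genes. Over the 12 libraries the mean log2 CPM of the 10 genes followed that of the macrophage markers (Pearson r = 0.908, Spearman rho = 0.895; r = 0.884 without the 2 libraries farthest from the median, 0.862 within run 2 and 0.845 within run 1). With the neuron markers it ran the other way (r = -0.704, rho = -0.818; r = -0.613 without libraries 4 and 11, -0.944 within run 2 and -0.871 within run 1). Within single runs other lists lay near or above the macrophage values. In run 2 r was 0.885 for mast cell and 0.848 for perineurial markers. In run 1 it was 0.85 for T cell and 0.808 for endothelial markers. Over all 12 libraries r was lower for these lists, at 0.566, 0.609, 0.299 and 0.447 in the same order. All these r values are descriptions from 13 marker lists compared in the same way. No p is given because the 10 genes were chosen with earlier results known. A permutation with adjustment over the 13 lists shuffled libraries across runs, and the genes were not chosen apart from these data. Its outcome is therefore not used as support. Macrophage markers were also lower in run 2 than in run 1, with a median log2 fold change of -1.12. Neuron markers summed to 21.6 CPM in library 4 and 11171 CPM in library 11, so the libraries at the ends of the matrix genes were also at the ends of neuron content, and the part of neuron content was not tested.

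**Figure D4:**
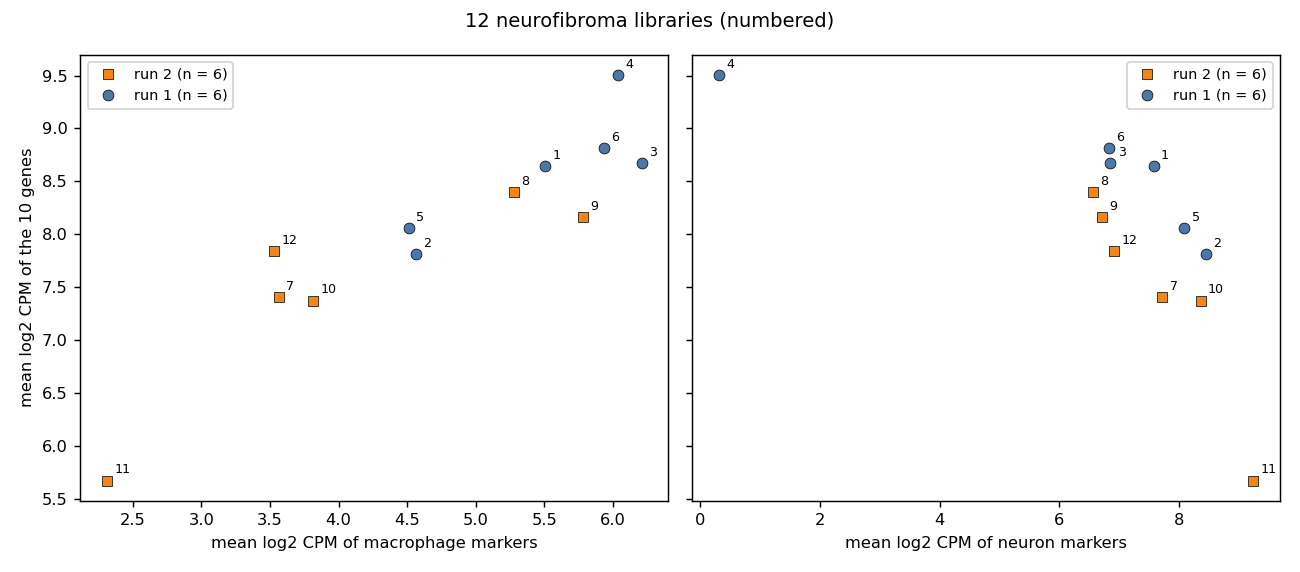
Mean log2 CPM of the 10 genes in each neurofibroma library against that of the macrophage markers (left) and of the neuron markers (right), with squares for run 2 and circles for run 1 and libraries numbered. Library 11 is lowest on the vertical axis (5.67) with the fewest macrophage and the most neuron transcripts, and library 4 is highest (9.51).

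Related genes were read from lists chosen with earlier results of these data known, and their counts stand beside the shares of all tested genes that passed. In GEM-PNST against paraspinal tumors 2.48% of all genes were higher and 7.69% lower, in GEM-PNST against neurofibroma 35.0% and 38.1%, and in paraspinal tumors against neurofibroma 30.2% and 29.2%. Nothing is read from a list whose share lies near these. Of 9 tested further leucine-rich proteoglycan genes, 0 passed between GEM-PNST and paraspinal tumors, and against neurofibroma 3 rose in GEM-PNST and 4 fell. Bgn, which encodes biglycan, a close relative of decorin, rose by 2.66 (SE 0.59, adjusted p = 0.000761) and Ogn, which encodes osteoglycin, fell by 3.63 (SE 0.97, adjusted p = 0.00315; log2 scale, edgeR). In GEM-PNST libraries 1 to 4 Bgn had 344, 5129.9, 4675 and 3267 CPM, where Ogn had 0.135, 25.9, 16.4 and 92.6 CPM. The shares of this list lie near those of all genes, and Bgn and Ogn are single examples from it, so no trend is read.

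Of 12 elastic fiber genes, 0 passed between GEM-PNST and paraspinal tumors, and 6 rose and 0 fell both in GEM-PNST and in paraspinal tumors against neurofibroma, beside 35.0% and 30.2% of all genes higher. Mfap2, which encodes a microfibril protein, ran between 0.471 and 15.3 CPM in neurofibroma (n = 12), 8.42 and 111 CPM in paraspinal (n = 4) and 3.12 and 164 CPM in GEM-PNST libraries (n = 4). On the log2 scale it rose by 4.14 in GEM-PNST (SE 0.77, adjusted p = 0.000147) and by 3.29 in paraspinal tumors (SE 0.70, adjusted p = 0.000641; edgeR) against neurofibroma. Emilin1, which encodes an elastin-associated glycoprotein, rose by 3.91 in GEM-PNST (SE 0.67, adjusted p = 6.24e-05) and by 3.24 in paraspinal tumors (SE 0.56, adjusted p = 9.49e-05; edgeR) against neurofibroma. Of 20 matricellular and adhesive genes, 0 rose and 1 fell in GEM-PNST against paraspinal tumors. This was Smoc1, a relative of Sparc, which fell by 4.10 (SE 0.82, edgeR adjusted p = 0.0219), with 1.02, 0.324, 1.86 and 0.162 CPM in the GEM-PNST libraries (1 to 4 in order), against 10.1 to 23.9 CPM in paraspinal libraries.

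Of 18 genes of the TGF-beta pathway, which drives matrix genes in fibroblasts, 0 passed between GEM-PNST and paraspinal tumors, 7 rose and 5 fell in GEM-PNST against neurofibroma, and 5 rose and 6 fell in paraspinal tumors against neurofibroma, shares near those of all genes. The ligand gene Tgfb1 rose by 4.82 in GEM-PNST and 2.84 in paraspinal tumors against neurofibroma (log2 scale, SE 0.51 and 0.44; edgeR adjusted p of 3.32e-07 and 3.20e-05). In GEM-PNST it was highest in library 1 (648 CPM, against 105 to 124 CPM in the other 3). The part of Tgfb1 in the levels of the 10 genes was not tested. Smad2, a transducer of the pathway, fell by 1.47 in GEM-PNST (SE 0.17, adjusted p = 7.04e-07) and by 1.19 in paraspinal tumors (SE 0.14, adjusted p = 1.83e-06; edgeR) against neurofibroma. Of 14 receptor genes for these glycoproteins, 0 rose and 1 fell in GEM-PNST against paraspinal tumors. It was Itgb8, an integrin subunit, which fell by 6.42 (SE 1.35, edgeR adjusted p = 0.0260) to at most 1.08 CPM in GEM-PNST, against 7.05 to 118 CPM in paraspinal libraries.

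Among 7 endoneurial fibroblast markers, 1 fell in GEM-PNST against paraspinal tumors, and 1 rose and 4 fell against neurofibroma, beside 7.69% and 38.1% of all genes lower in these comparisons. The marker that fell in the first comparison was Wif1, a secreted WNT antagonist, with 0, 0, 0.667 and 0 CPM in GEM-PNST libraries 1 to 4 and 2.44 to 156 CPM in paraspinal libraries (edgeR adjusted p = 0.0348). Among 8 epineurial markers, 1 fell in GEM-PNST against paraspinal tumors, and 4 rose and 1 fell against neurofibroma. The epineurial marker that fell against paraspinal tumors was Gsn, the actin-severing gelsolin gene, which fell by 1.76 against paraspinal tumors (SE 0.45, adjusted p = 0.0444) and rose by 0.90 against neurofibroma (SE 0.33, adjusted p = 0.0215; log2 scale, edgeR).

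Over all 20 libraries, each gene was set beside 10492 others by Pearson r of log2 CPM, as a description over libraries that share stages, runs and depth. GEM-PNST library 1 weighs on these r values. Dcn stood at -11.2 from its log2 mean there and between -2.02 and 2.00 in all other libraries. Lum (-10.0), Tnc (-7.42) and Fbln1 (-6.46) were also lowest there, so a gene low in that library can score high. The closest gene was Erbb2 for Apod (r = 0.944), Ncam1 for Dcn (r = 0.973), Ccl11 for Lum (r = 0.982) and Dram1 for Dpt (r = 0.823). It was Fzd2 for Fbln1 (r = 0.951), Col5a2 for Postn (r = 0.958), Gpc4 for Fn1 (r = 0.936) and Prss23 for Sparc (r = 0.929). For Tnc it was Ssc5d (r = 0.948) and for Cd34 Ubtd2 (r = 0.923). Within the 10, Tnc was the closest to 5 (Fbln1, Postn, Fn1, Sparc and Cd34), and Dcn and Lum were closest to each other (r = 0.895).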

How the data were processed

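Bulk RNA-seq of 20 mouse tumors was deposited as raw counts per gene, from total RNA (RNeasy Plus Micro) and Nextera XT libraries, per the labels' protocols. TopHat, HISAT2, featureCounts and mm10 are named in the submitters' processing notes; strand use is not given in the sources used here. From the counts deposited by the authors, genes were filtered with filterByExpr over 20 libraries, scaled with TMM and tested for each comparison with edgeR 4.0.16 (quasi-likelihood, Benjamini-Hochberg over 16589 genes, threshold 0.05) in R 4.3.3. The fits between the paraspinal subgroups also held the 4 GEM-PNST libraries, which add to the estimate of the spread. DESeq2 1.42.0 and limma 3.58.1 (voom) were alternatives. The code was tested on counts simulated from the means, spread and library sizes of these data. Of 100 4-fold changes, edgeR found 65 in GEM-PNST against neurofibroma, 80 in paraspinal tumors against neurofibroma and 81 between neurofibroma runs. It found 0 of 100 in GEM-PNST against paraspinal tumors and 0 between subgroups. A lack of calls there does not show equal levels. Log2 CPM used a prior count of 2. Gene positions came from GENCODE M21 and start regions from RefSeq GRCm38.p6.

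All 10 genes were named. Of other lists, examples came from up to 4 genes with the smallest p past the threshold in GEM-PNST against paraspinal tumors, otherwise against neurofibroma. For likeness, the closest genes had a mean log2 CPM of at least 3. The 10 genes and the lists were chosen with earlier results of these data known. No 2 libraries of a stage agreed within sampling noise (lowest chi-square per degree of freedom 23.9 over 78 pairs).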

Additional observations from a re-analysis of the deposited data

Results flagged for a closer look

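In GEM-PNST, library 1 lay far from the other 3 for Dcn (0.474 CPM, against 355 to 981 CPM in libraries 2 to 4), Dpt (0.271 CPM, against 37.7 to 89.8 CPM) and Fbln1 (0.0 CPM, against 31.8 to 70.2 CPM). Its gap to the nearest library, as a share of the range on the log2 scale, was above Dixon's critical value for 4 libraries. Of the 10 genes scanned in each of 2 groups of 4 libraries, 3 gene values were marked, where chance marks about 1 in 20 groups. All 3 came from library 1, and genes of 1 library that vary together are not independent, so the 3 marks are not separate observations.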

How the results depend on the processing

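Over 780 alternative values of single genes, 680 kept direction and side of the threshold, 20 lost a call, 32 gained one and 48 turned sign, none of these with an adjusted p below 0.05. No called gene turned sign. The cause was not tested. With 4 libraries in a stage, single libraries decide many calls.

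In GEM-PNST against paraspinal tumors, where 0 of the 10 genes and 1686 of all genes passed, DESeq2 called 1 and 4711, limma-voom 1 and 2818, and 1 fit over all 20 libraries 2 and 7060. With subgroup 2 alone 61 of all genes passed. Leaving out 1 library gave 0 to 3 of the 10 genes and 507 to 2304 of all genes. Log2 fold changes that turned sign were Postn -0.16 (limma-voom), Fn1 0.090 (all 20 libraries), Fn1 0.78 and Sparc 0.45 (subgroup 1 alone), and Postn -0.36 and Tnc -0.54 (subgroup 2 alone). Without 1 library Postn ran from -1.20 to 0.49, Fn1 from -0.58 to 0.32 and Tnc from -0.37 to 1.19.

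In GEM-PNST against neurofibroma 3 of the 10 genes and 12120 of all genes passed, 0 and 10708 with run 2 alone, and 2 to 5 and 11808 to 12129 without 1 library. With run 1 alone Postn (-0.14), Fn1 (-0.16) and Sparc (-0.15) turned sign. Without 1 library Postn ran from -0.70 to 0.98, Fn1 from -0.029 to 0.78, Sparc from -0.87 to 0.58 and Cd34 from -0.66 to 1.00.

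In paraspinal tumors against neurofibroma 3 of the 10 and 9858 of all genes passed, 1 and 8912 in the fit over all 20 libraries, 6 and 8724 with run 2 alone, 1 and 7422 with subgroup 1 alone, 5 and 9965 with subgroup 2 alone, and 1 to 5 and 8766 to 9995 without 1 library. Dpt turned sign in limma-voom (0.73), with run 1 alone (0.17) and with subgroup 2 alone (0.21), and ran from -0.57 to 0.043 without 1 library. With run 1 alone Lum (-0.30), Postn (-0.33) and Fn1 (-0.14) turned, with run 2 alone Dcn (0.16), and with subgroup 1 alone Lum (-0.49), Postn (-0.22), Fn1 (-0.44), Sparc (-0.23) and Tnc (-0.63).

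Between the paraspinal subgroups DESeq2 called 1212 genes, limma-voom 5453 and 1 of the 10, and the fit over all 20 libraries 1231. Dcn ran from -0.34 to 0.70 without 1 library. Between the neurofibroma runs DESeq2 called 526 genes and 2 of the 10, limma-voom 440 and 3, and edgeR 0 to 157 genes and 0 of the 10 without 1 library.

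Replicate numbers are shared between groups, and deviations of same-numbered libraries correlated from -0.287 to 0.216. Libraries of unlike number were not compared in this way, so these values cannot show whether same-numbered libraries share an animal or a batch. With the replicate number as a block, calls were 1 of the 10 and 840 of all genes in GEM-PNST against paraspinal tumors, 1 and 7204 in GEM-PNST against neurofibroma, and 0 and 2762 in paraspinal tumors against neurofibroma. Under the block Dpt (-0.0068), Fbln1 (-0.51), Postn (-2.32) and Tnc (-2.09) turned sign in the first of these, Postn (-1.23), Fn1 (-0.93), Sparc (-0.90) and Cd34 (-0.65) in the second, Dpt (1.99) in the third, and Dcn (-0.16) between subgroups. Leaving out Rn45s in the 3 stage comparisons and between runs, and leaving out neurofibroma library 8 or 9 wherever neurofibroma was compared, were chosen after seeing the data and changed no call of the 10 genes. Of the libraries with nearly alike names, leaving out subgroup 1 library 1 gave 0 of the 10 and 525 of all genes in GEM-PNST against paraspinal tumors, and leaving out GEM-PNST library 2 gave 0 and 1463.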
